A study of Mus musculus with 4 samples.

Results

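The genes that build cholesterol and fatty acids were examined in T helper 2 (Th2) cells of the mouse, from cultures that did or did not contain SH-2251. The 37 genes were a fixed list, found on the array by RefSeq accession among 18535 named genes. The rule finds them by name and asks for signal well above background on any array, without use of a measured difference. The list itself was chosen with earlier results of these data known, so it is not independent of them. They comprise 18 enzymes of sterol synthesis, 6 genes of sterol sensing and transport, 9 genes of fatty acid synthesis and desaturation and 4 genes of sterol efflux and the liver X receptors (LXR). All 37 were well above background on all 4 arrays, so each difference was measured and none was a bound.

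CD4 T cells from the spleen of female C57BL/6J mice were activated for 2 days with anti-TCR-β (3 µg/ml) and anti-CD28 (1 µg/ml) antibodies with IL-4 at 10 ng/ml and IL-2 at 2.5 ng/ml, and were kept in the same cytokines for 3 more days. SH-2251, a small thioamide-type molecule that blocks the output of IL-5, was present or left out (control) throughout. The labels give its dose as 1 µM in the first phase and 1 mM in the second phase, and these doses are not the one stated in the study's methods. Each culture was then sampled resting or after 4 h on immobilized anti-TCR-β antibody (restimulated), and each of the 4 conditions was hybridised to 1 array of a single slide. Whether the 4 conditions came from separate animals is not stated.

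Values are log2 of the processed intensity minus the 75th percentile of the array, so 0 stands for the brightness at that percentile, and each gene is read from its brightest probe. With 1 array per condition there is no replicate check and no test, and a gene was called where it differed at least 2-fold. The technical SD beside a difference is the scanner software's own error estimate. It was 0.204 for nearly all of the 37 genes and at most 0.221, and it leaves out the spread between cultures. No sample spot was saturated, and each array had 56.0% to 56.7% of its probes well above background. The T cell markers Cd3e, Cd3d, Cd4 and Cd28 and the Th2 markers Gata3, Il4, Il13 and Il5 were above background on all 4 arrays. With SH-2251, the resting and restimulated differences were -0.39 and -0.58 for Cd28 and -0.33 and -0.22 for Cd4. Cd28 in both states and Cd4 in resting cells were of the size of the median differences of the 37 genes below (-0.36 and -0.46). In restimulated cells Cd4 differed by less than that median. Cd3d differed by -0.04 and 0.11 and Cd3e by -0.21 and 0.098. Gata3 differed by -0.17 and -0.03, Il4 by -0.10 and -0.23, Il13 by -1.32 and -0.57 and Il5 by -3.86 and -3.01. All 4 B cell markers were above background too, with a summed log2 level of 2.09 in control resting, 2.29 in SH-2251 resting, 1.81 in control restimulated and 2.45 in SH-2251 restimulated cells. Cd8a was at -3.53 in control and -2.07 in SH-2251-treated resting cells, and at -2.82 and -1.85 in restimulated cells. Of 4 myeloid markers, Lyz2 and Itgam never rose well above background, and the summed level of the list ran from 1.24 to 1.55. The part of these markers and of other cells in the results below was not tested. In RNA from whole cultures, fewer cells of a type and less RNA per cell cannot be told apart.

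Cells make cholesterol from acetyl-CoA by way of mevalonate, the isoprenoids, squalene and lanosterol. The genes of this route share a common switch. When membrane sterol is low, Scap carries the SREBP transcription factors (products of Srebf1 and Srebf2) out of the endoplasmic reticulum for cleavage, and the cleaved factors bind sterol response elements together with NF-Y and Sp1, whereas Insig proteins hold Scap back when sterol is plentiful. Oxysterols activate the LXR instead, which turns on efflux transporters and Mylip. T cells are known to raise lipid synthesis when they are activated and divide.

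The RefSeq promoter table (assembly GRCm38.p6, 250 bases before to 50 bases after each start) held 29 of the 37 genes. Abcg1, Fads1, Fdft1, Fdps, Scd1, Scd2, Sqle and Stard4 had no entry. The stretch of 200 bases that ends at the start is printed for 4 genes. Hsd17b7 and Lss are sterol enzymes that were lower with SH-2251 in both states. Cyp51 is the member with the largest increase on restimulation in both cultures. Hmgcs1 carries the only match among these 29 genes to TCACNCCAC, a form of the sterol response element. No other form of the element was searched for. Capitals mark CCAAT (the NF-Y motif) on either strand, and in Hmgcs1 also the match to TCACNCCAC. The stretches are chr1:169969206-169969405 (minus strand) for Hsd17b7, chr10:76531405-76531604 (plus strand) for Lss, chr5:4104698-4104897 (minus strand) for Cyp51 and chr13:119690151-119690350 (plus strand) for Hmgcs1, each read 5′ to 3′ on the strand of the gene.
Hsd17b7: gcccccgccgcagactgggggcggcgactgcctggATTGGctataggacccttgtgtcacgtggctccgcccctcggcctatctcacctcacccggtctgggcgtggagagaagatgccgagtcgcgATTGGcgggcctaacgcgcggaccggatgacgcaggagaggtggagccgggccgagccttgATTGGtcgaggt
Lss: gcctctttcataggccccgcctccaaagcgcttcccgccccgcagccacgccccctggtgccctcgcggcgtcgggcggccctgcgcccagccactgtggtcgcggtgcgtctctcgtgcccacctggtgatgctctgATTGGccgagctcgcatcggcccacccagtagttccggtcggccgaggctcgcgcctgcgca
Cyp51: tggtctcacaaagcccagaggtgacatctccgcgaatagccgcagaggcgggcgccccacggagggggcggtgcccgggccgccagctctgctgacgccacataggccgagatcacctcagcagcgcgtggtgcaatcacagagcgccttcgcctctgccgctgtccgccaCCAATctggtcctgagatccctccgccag
Hmgcs1: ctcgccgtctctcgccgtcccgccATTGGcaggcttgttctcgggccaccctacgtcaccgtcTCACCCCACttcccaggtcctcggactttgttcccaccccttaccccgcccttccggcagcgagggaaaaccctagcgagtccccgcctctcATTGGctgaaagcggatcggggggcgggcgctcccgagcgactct

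Hsd17b7 holds 3 CCAAT matches in this stretch, the nearest 12 bases before the start. Lss and Cyp51 hold 1 each, 62 and 29 bases before it, and Hmgcs1 holds 2, whereas over its full window Hmgcs1 holds 4. The match of Hmgcs1 to TCACNCCAC reads TCACCCCAC and begins 137 bases before the start. Over the full windows and both strands, CCAAT was found in 22 of the 29 genes (75.9%), among them 14 of the 15 sterol enzymes with an entry (93.3%), compared with 41.1% of all 27025 genes in the table. GGGCGG, the Sp1 motif, was found in 24 of the 29 (82.8%) and in 38.2% of all genes. The E-box CACGTG was in 6 of the 29 (20.7%) and in 8.09% of all genes. TCACNCCAC was in 1 of the 29 and in 1.44% of all genes. Matches to the 4 motifs were counted separately and may overlap. They describe letters in these windows and not the binding of any factor. The share over all genes includes genes that are not expressed in these cells. The share among expressed genes only was not computed.

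**Figure D1:**
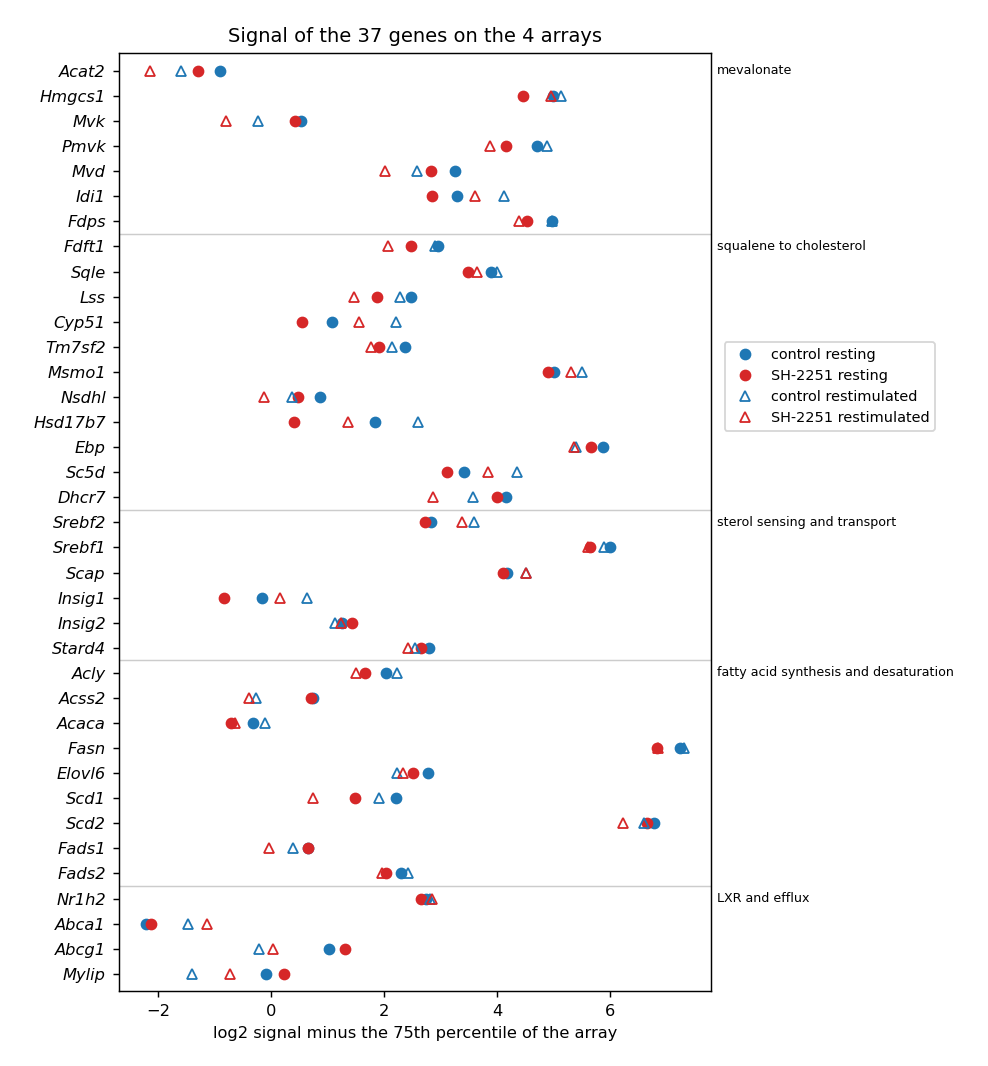
Log2 signal minus the 75th percentile of the array (x axis) for each of the 37 genes (rows, grouped by role) on the 4 arrays, with filled circles for resting and open triangles for restimulated cells, blue for control and red for SH-2251. In most rows the red symbol lies to the left of the blue one of the same shape, as for Hsd17b7 at 0.41 against 1.84 in resting cells. Values of different genes come from different probes and are not to be ranked against each other.

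In resting cells most of the 37 genes were lower with SH-2251, by amounts under 1.5-fold for most. Of the 37, 33 were lower and 4 higher, where 57.5% of 12680 genes compared were lower and 42.5% higher. Lower by more than the technical SD were 23 of the 37 (27.2% of all genes), and 2 were higher by more than it (18.9%). Lower by at least 1.5-fold were Hsd17b7, Scd1, Insig1 and Lss (background 7.45%), and Hsd17b7 alone was called at 2-fold (background 2.90%). None was at least 1.5-fold higher (background 6.10%). The median difference was -0.36, compared with -0.055 over all genes.

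In restimulated cells SH-2251 went with lower signal for 30 of the 37 genes and higher signal for 7, where 57.8% of 12619 genes were lower and 42.1% higher. Lower by more than the technical SD were 25 (27.6% of all genes), and 3 were higher by more than it (19.5%). At least 1.5-fold lower were 8 genes, Hsd17b7, Scd1, Pmvk, Fdft1, Lss, Acly, Dhcr7 and Cyp51 (background 7.14%), and Mylip was at least 1.5-fold higher (background 6.90%). Hsd17b7, Scd1 and Pmvk were called at 2-fold (background 2.78%), and none was at least 2-fold higher (background 2.65%). The median was -0.46, compared with -0.063 over all genes.

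Over both states, 30 of the 37 genes (81.1%) were lower with SH-2251 in resting and in restimulated cells, compared with 46.2% of 12146 genes compared in both. The share that was lower by more than the technical SD in both was 54.1% (20 genes) against 17.3%. Higher in both states were Insig2, Abca1, Abcg1 and Mylip (10.8% against 30.7%). The resting and restimulated arrays are separate hybridisations, but no replicate culture stands behind either. Across the 37 genes the differences in the 2 states correlated with r = 0.81 (Pearson) and rho = 0.74 (Spearman), and without Hsd17b7 r was 0.80. The points share the same 4 arrays, and genes are not independent replicates. No correlation over all genes stands beside these values, so they are not read as a trait of the 37 genes.

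**Figure D2:**
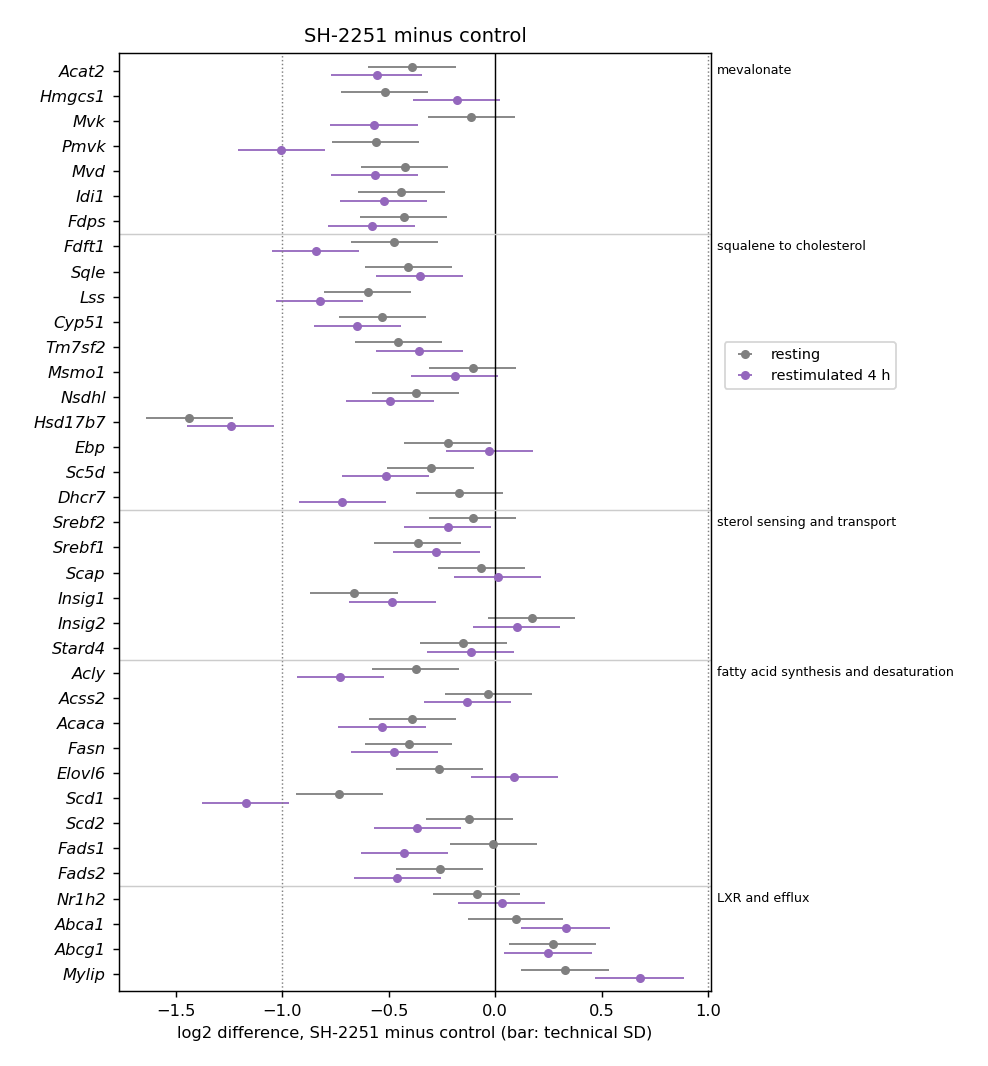
Log2 difference, SH-2251 minus control (x axis), for each of the 37 genes in resting (grey) and 4 h restimulated (purple) cells, with the technical SD as bars and dotted lines at 2-fold. The sterol enzymes lie to the left of 0 in both states, although other scalings put Ebp (restimulated) and Msmo1 (resting) to the right of it, and the 4 genes of LXR and efflux run from -0.09 (Nr1h2, resting) to 0.68 (Mylip, restimulated).

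The enzymes that make isoprenoids from acetyl-CoA were all lower with SH-2251 in both states. The median of these 7 was -0.43 in resting and -0.56 in restimulated cells, and 6 of 7 lay beyond the technical SD in either state. Pmvk, phosphomevalonate kinase, had a log2 level of 4.71 in control and 4.15 in SH-2251-treated resting cells, and of 4.88 and 3.87 in restimulated cells. Both SH-2251 arrays were below both control arrays. The differences were -0.56 and -1.004 (technical SD 0.204), and the restimulated signal fell to 49.9% of control. This call sits at the 2-fold line and was lost with median centring (-0.96) and quantile normalization (-0.93), while a separate probe of Pmvk gave -0.63 and -1.04.

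Mvk, the mevalonate kinase of the preceding step, was at 0.54 in control and 0.43 in SH-2251-treated resting cells, and at -0.23 and -0.80 after restimulation. By this brightest probe the SH-2251 difference was within the technical SD in resting cells (-0.11) and beyond it in restimulated cells (-0.57). A separate probe of Mvk, nearly as bright, gave -0.32 and -0.66, beyond the technical SD in both states. Mvd, which decarboxylates mevalonate diphosphate, was at 3.25, 2.83, 2.58 and 2.02 in control resting, SH-2251 resting, control restimulated and SH-2251 restimulated cells. Acat2, the thiolase that joins acetyl-CoA units, was at -0.91, -1.30, -1.59 and -2.14 in the same order. Each of these 3 genes was lower with SH-2251 in either state and lower after restimulation in either culture, so the SH-2251 restimulated array was the lowest of the 4. Only under normexp, an alternative background correction, was Acat2 not lower with SH-2251 in resting cells (0.028).

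Hmgcs1, the HMG-CoA synthase, was at 4.99 in control and 4.47 in SH-2251-treated resting cells, and at 5.13 and 4.96 in restimulated cells. Its difference was -0.52 in resting cells and within the technical SD in restimulated cells (-0.18), although a dimmer probe of the gene gave -0.58 and -0.46. Idi1, the isomerase that supplies dimethylallyl diphosphate, was at 3.30 and 2.85 in resting and 4.13 and 3.61 in restimulated cells, with differences of -0.44 and -0.52. Fdps, farnesyl diphosphate synthase, was at 4.96 and 4.54, then 4.97 and 4.39, with differences of -0.43 and -0.58. Idi1 was lower with SH-2251 and higher after restimulation, whereas Fdps hardly differed between the states in control cells (0.0037).

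From squalene to cholesterol, 11 of 11 enzymes were lower with SH-2251 in both states, with medians of -0.41 and -0.51, and 9 lay beyond the technical SD in either state. Together with the mevalonate enzymes this made 18 of 18 lower, with a median of -0.43 in resting and -0.56 in restimulated cells, although Ebp and Msmo1 turned sign with the scaling. Ebp in restimulated cells went from -0.03 to 0.015 with median centring and to 0.074 with quantile normalization, and Msmo1 in resting cells from -0.10 to 0.045 with quantile normalization.

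Hsd17b7, a keto-sterol reductase that acts in the removal of methyl groups from lanosterol, differed most. Its log2 level was 1.84 in control and 0.41 in SH-2251-treated resting cells, and 2.61 in control and 1.37 in SH-2251-treated restimulated cells. Both cultures were higher after restimulation, and the SH-2251 restimulated array remained under the control resting array. The SH-2251 differences were -1.44 and -1.24 (technical SD 0.204), so the signal fell to 36.9% and 42.3% of control. Among all genes measured on both arrays these were the decreases of rank 128 of 11871 and rank 142 of 11809. A separate probe gave -1.38 and -1.28, and over all alternatives Hsd17b7 lay from -1.49 to -1.38 in resting and from -1.28 to -1.19 in restimulated cells.

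Lss, lanosterol synthase, was at 2.48 and 1.88 in resting and 2.29 and 1.47 in restimulated cells, control first. The differences were -0.60 and -0.82, or 1.51-fold and 1.77-fold lower, and a separate probe gave -0.66 and -0.82. Fdft1, squalene synthase, was at 2.95 and 2.48 in resting and 2.91 and 2.07 in restimulated cells, with differences of -0.47 and -0.84. For both genes the SH-2251 restimulated array was the lowest and the 2 control arrays lay within 0.19 of each other. Sqle, squalene epoxidase, was at 3.89, 3.49, 4.01 and 3.65 in control resting, SH-2251 resting, control restimulated and SH-2251 restimulated cells, which gave similar differences of -0.41 and -0.35.

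Cyp51, lanosterol demethylase, was at 1.09 in control and 0.56 in SH-2251-treated resting cells, and at 2.21 and 1.56 in restimulated cells. The SH-2251 differences of -0.53 and -0.65 were smaller than the increases on restimulation. Sc5d, a sterol desaturase, was at 3.41, 3.11, 4.35 and 3.84 in the order given for Sqle, with SH-2251 differences of -0.30 and -0.51. In both genes the restimulated arrays were the upper pair, and SH-2251 was the lower array of each pair.

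Dhcr7, the reductase that forms cholesterol from its dehydro precursor, was at 4.16 and 3.99 in resting and 3.58 and 2.86 in restimulated cells. The SH-2251 difference was within the technical SD in resting cells (-0.17) and was -0.72 in restimulated cells, or 1.64-fold lower. The change between states was the most negative of the 37 genes, at -0.55 (technical SD 0.289). The remaining 4 enzymes of this stretch all differed by less than 1.5-fold in either state. Tm7sf2, a sterol reductase, differed by -0.46 and -0.36, Nsdhl, a sterol dehydrogenase, by -0.37 and -0.49, Ebp, a sterol isomerase, by -0.22 and -0.03, and Msmo1, methylsterol monooxygenase, by -0.10 and -0.19.

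The genes that sense sterols or carry them were mixed. With SH-2251, 5 of 6 were lower in resting cells (57.5% of all genes) and 4 of 6 in restimulated cells (57.8%), with medians of -0.13 and -0.17. Lower by more than the technical SD were 2 and 3 of them (27.2% and 27.6% of all genes). Insig1, which retains Scap in the endoplasmic reticulum and is itself an SREBP target, was at -0.16 and -0.83 in resting and 0.64 and 0.16 in restimulated cells. It was 1.58-fold lower with SH-2251 in resting cells (-0.66) and differed by -0.48 in restimulated cells. Insig2, its paralog, was at 1.26, 1.43, 1.14 and 1.24 in control resting, SH-2251 resting, control restimulated and SH-2251 restimulated cells, and its differences of 0.17 and 0.10 were within the technical SD.

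Srebf2, the SREBP gene tied mainly to cholesterol synthesis, was at 2.83 and 2.72 in resting and 3.60 and 3.38 in restimulated cells. Its differences with SH-2251 were -0.11 and -0.22, and a separate probe gave -0.06 and 0.053. Srebf1, tied mainly to fatty acid synthesis, was at 6.00 and 5.64, then 5.89 and 5.61, with differences of -0.36 and -0.28. Scap differed by -0.07 and 0.01. Srebf1 lay beyond the technical SD in both states, and its resting difference equalled the median of the 37 genes (-0.36). Srebf2 lay beyond it only in restimulated cells and only by its brightest probe, and Scap in neither state. Cleavage of the SREBP proteins was not measured. Stard4, a carrier of cholesterol between membranes, had 3 probes that did not give the same answer. The brightest gave -0.15 and -0.11, and the other 2 gave -0.55 and -0.52 in resting cells and -0.51 each in restimulated cells.

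In fatty acid synthesis and desaturation, 9 of 9 genes were lower with SH-2251 in resting and 8 of 9 in restimulated cells, with medians of -0.26 and -0.46, although in resting cells Acss2 and Fads1 turned sign with median centring and Scd2 with quantile normalization. Scd1, the desaturase that makes oleate from stearate, was at 2.22 in control and 1.49 in SH-2251-treated resting cells, and at 1.92 and 0.75 in restimulated cells. The differences were -0.73 and -1.17 (technical SD 0.204), so the restimulated signal fell to 44.4% of control, and the SH-2251 restimulated array was the lowest. Scd2, the paralog, was at 6.78, 6.66, 6.60 and 6.23 in control resting, SH-2251 resting, control restimulated and SH-2251 restimulated cells, with differences of -0.12 and -0.37. Whether the single probe of either desaturase also reads the other was not tested.

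Acly, ATP citrate lyase, which makes cytosolic acetyl-CoA, was at 2.04 and 1.66 in resting and 2.23 and 1.51 in restimulated cells. Its differences were -0.37 and -0.73. Fasn, fatty acid synthase, was at 7.24 and 6.83, then 7.32 and 6.84, and differed by -0.41 and -0.47, while a separate probe gave -0.54 and -0.68. The 2 control arrays of Fasn were above both SH-2251 arrays. Acss2, which makes acetyl-CoA from acetate, was at 0.74 and 0.70, then -0.26 and -0.39. By this brightest probe it hardly differed with SH-2251 (-0.03 and -0.13) and was lower after restimulation. A dimmer probe of Acss2 gave SH-2251 differences of 0.07 and -0.39, the latter beyond its technical SD of 0.217.

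Fads1 and Fads2 desaturate polyunsaturated fatty acids. Fads1 was at 0.66, 0.65, 0.39 and -0.04 in control resting, SH-2251 resting, control restimulated and SH-2251 restimulated cells, and its SH-2251 difference went from -0.01 in resting to -0.43 in restimulated cells. Fads2 differed by -0.26 and -0.46. Elovl6, which lengthens palmitate, differed by -0.26 and 0.09. Acaca, acetyl-CoA carboxylase, differed by -0.39 and -0.53 by its brightest probe. Of its 2 other probes above background on all arrays, one gave -0.37 and -0.51 and the other 0.63 and -0.40, so 1 of these 3 probes went the other way in resting cells.

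Of the efflux and LXR genes, most were higher with SH-2251. In count, 3 of 4 were higher in resting cells (42.5% of all genes) and 4 of 4 in restimulated cells (42.1%), with medians of 0.18 and 0.29. Higher by more than the technical SD were 2 and 3 of them (18.9% and 19.5% of all genes), and Nr1h2 lay within it in both states. None reached 2-fold. Mylip, an LXR target that marks lipoprotein receptors for degradation, was at -0.09 and 0.24 in resting and -1.40 and -0.72 in restimulated cells, with differences of 0.33 and 0.68. The other probe of Mylip never reached well above background and gives no direction.

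Abcg1, an exporter of cholesterol to lipoproteins, was at 1.03 and 1.30 in resting and -0.21 and 0.04 in restimulated cells, with differences of 0.27 and 0.25. Abca1, the exporter to lipid-poor apolipoproteins, was at -2.22 and -2.12, then -1.46 and -1.13, with differences of 0.10 (technical SD 0.221) and 0.33 (technical SD 0.209). Nr1h2, which encodes an LXR, differed by -0.09 and 0.03. In restimulated cells normexp put Nr1h2 at -0.007, and the other 3 genes kept a positive sign there.

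The size of the SH-2251 difference was compared between the states. Of the 37 genes, 24 (64.9%) had a more negative difference in restimulated cells and 13 a more positive one, where 47.7% of all genes were more negative, with a median change of -0.096, compared with 0.012 over 12146 genes. The changes ran from -0.55 (Dhcr7) to 0.35 (Elovl6 and Mylip), and 10 of 37 (27.0%) were beyond their technical SD of about 0.289, compared with 20.4% of all genes. After Dhcr7 the most negative, by the brightest probe of each gene, were Mvk (-0.46), Pmvk and Scd1 (-0.44 each) and Fads1 (-0.42). For Mvk the separate probe, with SH-2251 differences of -0.32 and -0.66, put the 2 states closer together. With 1 array per condition no test of this change can be made.

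After 4 h of restimulation some of the 37 genes were higher and others lower, as were all genes compared. In control cells 18 were higher and 19 lower (45.2% and 54.8% of 12754 genes), with a median of -0.040, compared with -0.065 over all genes. At least 1.5-fold higher were 7 (background 15.0%) and lower 6 (background 18.6%). Called at 2-fold were Cyp51, which rose (background 7.20%), and Abcg1 and Mylip, which fell (background 7.35%). In SH-2251-treated cells 14 were higher and 23 lower (46.4% and 53.6% of 12610 genes), with a median of -0.15, compared with -0.051 over all genes. Cyp51 was again called higher (background 7.09%), and Mvk, Dhcr7, Acss2 and Abcg1 were called lower (background 6.98%). The counts in control cells and these few calls stand near the background and are not read as a result about the list.

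**Figure D3:**
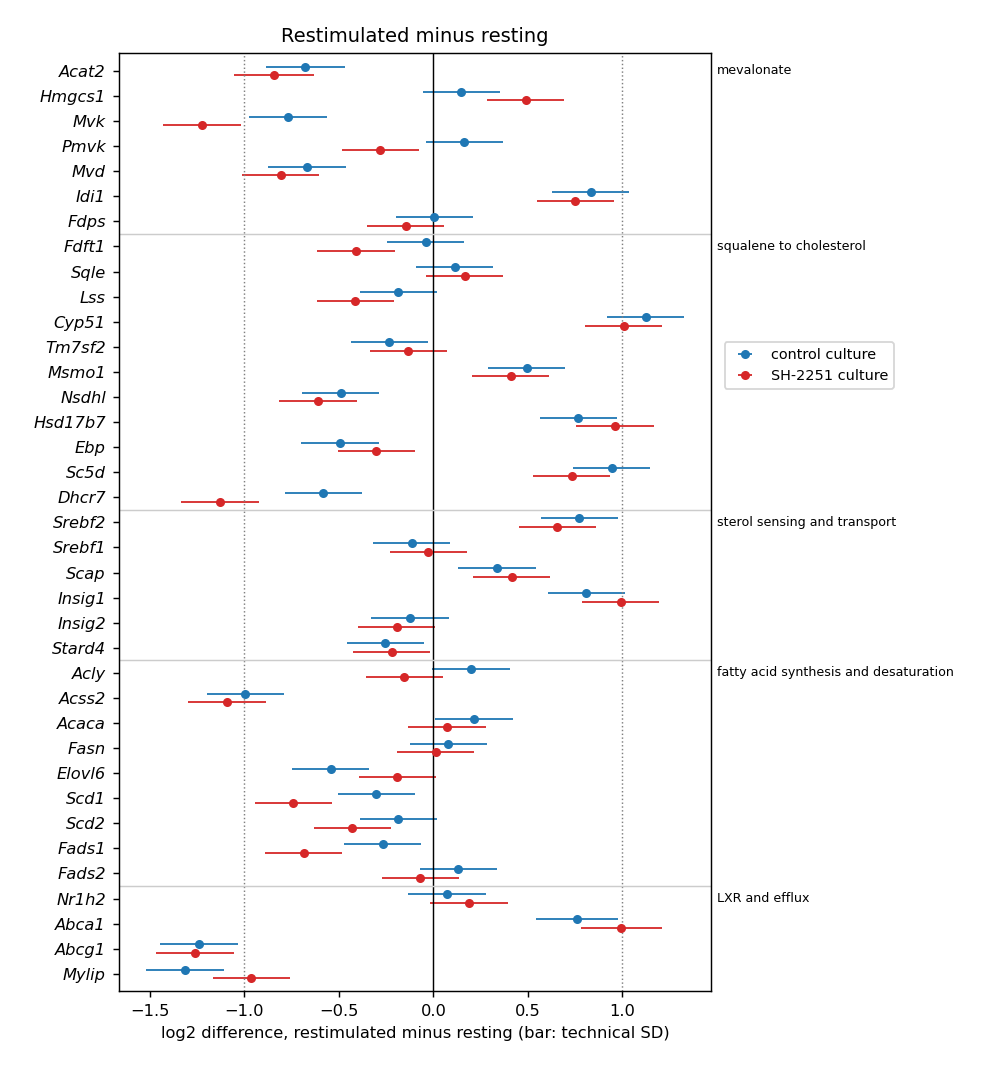
Log2 difference, restimulated minus resting (x axis), for each of the 37 genes in the control (blue) and SH-2251 (red) culture, with the technical SD as bars and dotted lines at 2-fold. Cyp51, Sc5d, Idi1, Hsd17b7, Insig1, Srebf2 and Abca1 lie to the right in both cultures, and Abcg1, Mylip, Acss2, Mvk, Acat2 and Mvd to the left.

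The same 7 genes were at least 1.5-fold higher on restimulation in both cultures (18.9%, compared with 11.5% of 12211 genes). Cyp51 rose 2.18-fold in the control culture and 2.01-fold in the SH-2251 culture (1.12 and 1.01). The second of these calls was lost with median centring (0.97) and quantile normalization (0.99), and the mean of all probes gave 0.99 and 0.94. Sc5d was 1.92-fold and 1.66-fold higher, Idi1 1.78-fold and 1.68-fold, Hsd17b7 1.70-fold and 1.95-fold, Insig1 1.75-fold and 1.99-fold, Srebf2 1.71-fold and 1.57-fold and Abca1 1.69-fold and 1.99-fold. These 7 hold 4 enzymes of sterol synthesis, a factor that drives it, a retention protein that checks it and an exporter. A separate probe of Srebf2 gave 0.36 and 0.47 in place of 0.77 and 0.65, both under 1.5-fold. A separate probe of Insig1 gave 0.52 and 0.64 in place of 0.81 and 0.99, with the control value under 1.5-fold. Separate probes of Idi1 (1.16 and 1.05) and Hsd17b7 (0.61 and 0.71) stayed above 1.5-fold in both cultures.

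At least 1.5-fold lower in both cultures were 6 genes (16.2%, compared with 14.5% of all genes). Abcg1 fell to 42.3% of its resting signal in the control culture and 41.7% in the SH-2251 culture. Mylip fell to 40.2% in control and was at 51.3% in SH-2251-treated cells. Acss2 was at 50.2% in control and fell to 46.9% in SH-2251-treated cells, so its log2 values of -0.99 and -1.09 lay on either side of the 2-fold line and within a technical SD of it. Mvk was at 58.7% and 42.8%, Acat2 at 62.5% and 55.7% and Mvd at 62.9% and 57.1%. Within the mevalonate steps, Idi1 was therefore higher on restimulation while Mvk, Mvd and Acat2 were lower. Hmgcs1 differed by 0.15 and 0.49 (0.59 and 0.70 by a dimmer probe), Pmvk by 0.16 and -0.28 and Fdps by 0.00 and -0.15, with a technical SD of 0.204 each for the brightest probes.

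Dhcr7 fell to 45.7% of its resting signal in SH-2251-treated cells and was at 66.8% in control cells. Among the fatty acid genes, Fads1 was at 83.0% in the control culture and 62.2% in the SH-2251 culture, and Scd1 at 81.1% and 59.8%. Nsdhl was at 71.2% and 65.5%. Fasn (0.08 and 0.01), Sqle (0.11 and 0.17) and Fads2 (0.13 and -0.07) were within the technical SD in both cultures. Each restimulation comparison shares its arrays with the SH-2251 comparisons, so these values are not separate evidence.

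**Figure D4:**
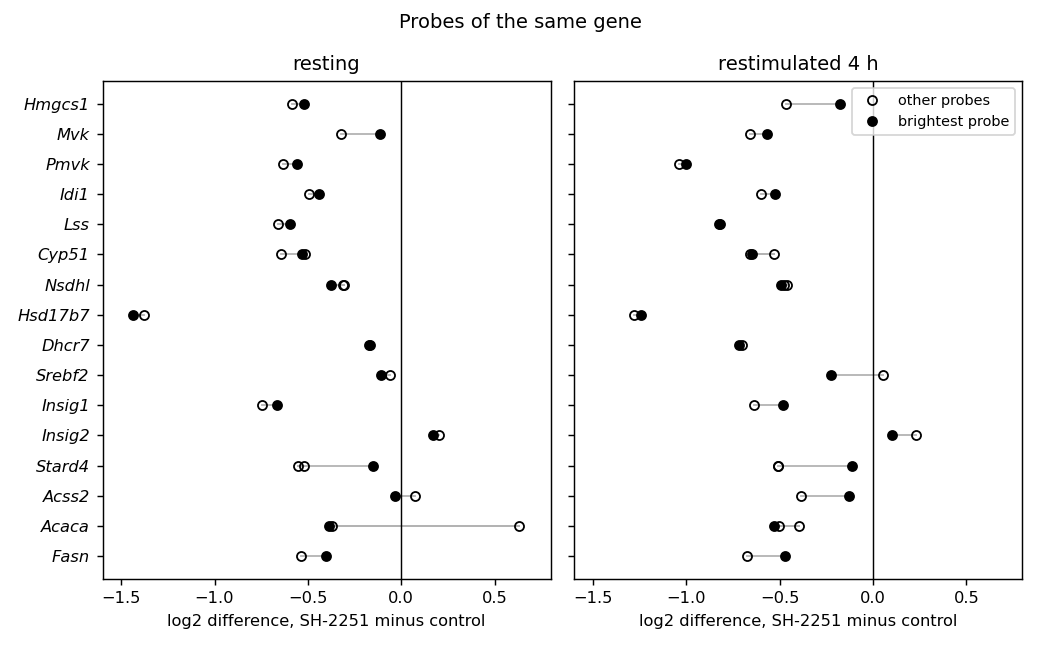
Log2 difference, SH-2251 minus control (x axis), in resting (left) and restimulated (right) cells for the 16 genes with more than 1 probe well above background on all arrays, with a filled symbol for the brightest probe and open symbols for the others. The probes of Hsd17b7, Pmvk, Lss and Dhcr7 nearly coincide, whereas those of Stard4 in both states and Acaca in resting cells lie apart.

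Separate probes gave a check on the measurement within an array, though not on the cultures. Of the 37 genes, 16 had more than 1 probe well above background on all arrays. The range between probes of a gene had a median of 0.071 in resting and 0.13 in restimulated cells for the SH-2251 difference, both under the technical SD of 0.204. Without Stard4 and Acaca the largest range was 0.21 in resting and 0.29 in restimulated cells over the remaining 14 genes. For the restimulation difference the probes lay farther apart, with medians of 0.19 in the control culture and 0.20 in the SH-2251 culture. Scd1 has a single probe, and the second probe of Fdft1 never reached well above background.

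A further 69 genes of lipid metabolism, listed by pathway, moved both ways. With SH-2251, 32 of the 62 compared in resting cells were lower (51.6%) and 30 higher, where 57.5% and 42.5% of all genes were. In restimulated cells 34 of 61 were lower (55.7%) and 27 higher, where 57.8% and 42.1% of all genes were. These shares stand near the background and are not read as a result about the list. At least 2-fold lower were 2 in resting and 1 in restimulated cells, and higher 1 and 3, where the background was 2.90%, 2.78%, 2.22% and 2.65% in that order. The 5 genes named next passed 2-fold in either state. Dgat1, which adds the last acyl chain of triglycerides, had a log2 level of 3.97 in control and 1.38 in SH-2251-treated resting cells, and of 4.04 and 1.82 in restimulated cells. Both SH-2251 arrays were far below both control arrays. The differences of -2.58 and -2.22 (technical SD 0.204), at ranks 22 and 34 among the decreases, exceeded that of every one of the 37 genes, and a separate probe gave -2.54 and -2.26.

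**Figure D5:**
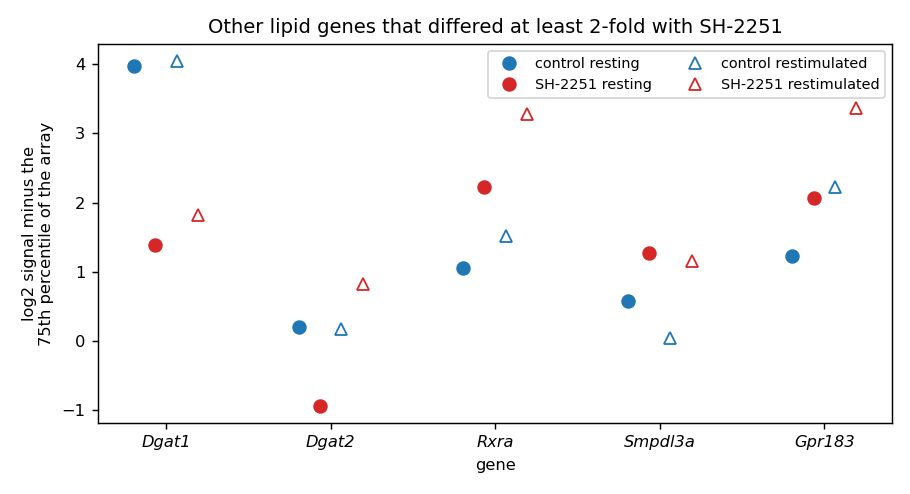
Log2 signal minus the 75th percentile of the array (y axis) for the 5 other lipid genes that differed at least 2-fold with SH-2251 in either state (x axis), with circles for resting and triangles for restimulated cells, blue for control and red for SH-2251. Dgat1 is lower and Rxra, Smpdl3a and Gpr183 higher with SH-2251 in both states, and Dgat2 is lower in resting and higher in restimulated cells.

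Dgat2, an unrelated enzyme of the same reaction, was at 0.21 in control and -0.93 in SH-2251-treated resting cells, and at 0.18 and 0.83 in restimulated cells. The SH-2251 resting array was the lowest and the SH-2251 restimulated array the highest of the 4. Rxra, the retinoid X receptor that pairs with LXR, was at 1.06 and 2.23 in resting and 1.52 and 3.27 in restimulated cells, so it rose 2.26-fold and 3.38-fold with SH-2251. Smpdl3a, an LXR target that encodes a phosphodiesterase, was at 0.58 and 1.27, then 0.04 and 1.16, and was 1.62-fold and 2.17-fold higher. Gpr183, a receptor for oxysterols that guides lymphocyte migration, was at 1.23 and 2.06, then 2.23 and 3.36, and was 1.77-fold and 2.19-fold higher. Of the 12 other LXR and oxysterol genes listed, these 3 included, the resting comparison had 4 of 10 lower and 6 higher, and the restimulated one 2 of 9 lower and 7 higher. Among the lower ones was Lpcat3, an LXR target of phospholipid remodelling named after its values were seen, with differences of -0.64 and -0.69. Smpdl3a was lower after restimulation in control cells (-0.53) and Gpr183 was higher (0.99).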

How the data were processed

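Total RNA of 4 conditions was labelled with Cy3 and hybridised to single-dye Agilent arrays, all on 1 slide and in 1 scan. The authors deposited scanner intensities that Feature Extraction 10.7.3.1 had corrected for background, and a table of log2 values. Those log2 values equal the log2 intensity minus a constant on each array, within 0.01 for 99.6% to 99.7% of probes. Control and outlier spots (the latter 77 to 106 on an array) were dropped, and spots of a probe were averaged. The 75th percentile subtracted was 499 to 614 intensity units. Of 41173 probes, 27190 were named through a RefSeq accession (assembly GRCm38.p6, names only). A gene was compared where at least 1 array of a pair had its brightest probe well above background, and a dim side was set to the dimmest signal well above background. The number of arrays limits the precision.

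Named genes are the 37 members, with all values where 1 comparison reached 1.5-fold or the gene defines a role, and other lipid genes that reached 2-fold with SH-2251. The members and lists were chosen with earlier results of these data known. In all, 12 alternatives were planned. Normexp used median spot signals (offset 50). The procedure was tested on simulated data. Python 3.11.15, numpy 2.4.6, pandas 2.3.3, matplotlib 3.10.9, R 4.3.3 and limma 3.58.1 were used.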

Additional observations from a re-analysis of the deposited data

Results flagged for a closer look

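Dgat2, the acyltransferase described above, was flagged because SH-2251 went with a lower signal in resting cells (-1.14, technical SD 0.206) and a higher one in restimulated cells (0.65, technical SD 0.204). Each state has 1 array per treatment, so the contrast between resting and restimulated cells was not tested. The other probes of Dgat2 gave -1.05 and -0.27 in resting and 0.68 and 0.48 in restimulated cells.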

How the results depend on the processing

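The members lower with SH-2251 numbered 30 to 33 in resting and 29 to 30 in restimulated cells over all alternatives, and the sterol enzymes 17 to 18 in either state. The member median lay from -0.48 to -0.23 and from -0.46 to -0.39. Counts of members past 2-fold moved as follows. In SH-2251-treated cells the 1 member higher on restimulation became 0 with median centring, quantile normalization, normexp without spots of uneven background and the mean of all probes, and 2 with normexp, where the 4 lower became 2. The mean of all probes left 1 lower and 0 higher on restimulation of control cells. The 3 members lower with SH-2251 in the restimulated state became 2 with median centring and quantile normalization and 4 with the mean of all probes, and the 2 lower on restimulation of control cells became 3 with the same scalings. At 1.5-fold, 4 were lower with the compound in the resting state, and in the restimulated state 8 were lower and 1 higher. Restimulation gave 6 lower and 7 higher in the control culture, against 10 and 7 in the treated culture. At 3-fold every one of these counts was 0. The median of the sterol enzymes on restimulation of SH-2251-treated cells went from -0.21 to 0.017 under normexp. That fit had a mean background of -151.7 on the SH-2251 resting array, compared with 7.36 to 8.23 on the others and 7.42 there without 12 uneven spots.

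Over all genes, normexp gave for SH-2251 162 lower and 694 higher (resting) and 161 lower and 149 higher (restimulated), and for restimulation 443 (control) and 1510 (treated) lower. Without uneven spots these were 189 and 122, 159 and 149, and 442 and 443. Neither filter nor bound gave 798 and 623, 949 and 677, and 1420 lower on restimulation of SH-2251-treated cells. The 1.5-fold threshold gave 945 and 773, 901 and 871, and on restimulation 2368 and 1910 (control) and 2384 and 1870 (treated). The 3-fold threshold gave 142 and 101, 144 and 102, 194 and 379, and 145 and 396. Quantile normalization moved the median of all genes to -0.11 in both restimulation comparisons. Dim genes are limited by signal over background, and none of the 37 was among those below it. No paired analysis was possible because each condition has 1 array.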
